A study of Mus musculus with 8 samples.

Results

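The enzymes that build heparan sulfate and edit its sulfation pattern were examined in isolated glomeruli as 10 listed genes, *Xylt1*, *Xylt2*, *Ext1*, *Ext2*, *Ndst1*, *Ndst2*, *Hs2st1*, *Hs6st1*, *Glce* and *Sulf1*. Every array probe whose gene symbol equals one of these names was taken, which gave 12 probes for 9 of the genes, out of 25697 probes and 18120 gene symbols in all. No probe carried the symbol *Ndst2* or a synonym of it. The *Glce* probe was not detected on any array, so 8 genes were tested, and 7 of them were detected on all 8 arrays. None of the 8 differed between Cd151-/- and Cd151+/+ glomeruli after adjustment for multiple testing.

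Heparan sulfate is a long sulfated sugar chain carried by core proteins such as perlecan, agrin, the syndecans and the glypicans. It is started by xylosyltransferases, extended by the exostosins, and then modified in the Golgi by deacetylation and sulfation, after which extracellular sulfatases can remove single sulfate groups. In the glomerulus these chains contribute to the negative charge of the glomerular basement membrane and bind growth factors and matrix proteins.

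Total RNA was extracted from glomerular isolates of 8 male FVB/N mice at 3 weeks of age, 4 Cd151+/+ and 4 Cd151-/-, and hybridised to Illumina MouseRef-8 v1.1 BeadChips, with 1 mouse per array. CD151 is a tetraspanin that binds laminin-binding integrins on podocytes, the epithelial cells that cover the glomerular basement membrane. The Cd151-/- mice lack the gene in every cell, no other allele or treatment is named for either group, and glomeruli had been collected with magnetic beads perfused through the heart. The comparison of genotypes was made to find early molecular changes in glomeruli that lack CD151. Levels are given as normalised log2 signal, in which a difference of 1 is a doubling, and limma with Benjamini-Hochberg adjustment was run over the 14967 probes that some array detected (detection p-value not above 0.05). Levels of different probes cannot be compared, because each probe binds its transcript differently.

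The targeted gene followed the labels. The brightest *Cd151* probe read 14.62, 14.53, 14.20 and 14.15 in Cd151+/+ mice 1 to 4, and 4.50, 4.55, 4.69 and 4.55 in Cd151-/- mice 1 to 4, where it was not detected. This is at least 523-fold lower in Cd151-/- glomeruli, a bound taken from the lowest signal of the detected probes on those arrays (limma adjusted p = 6.51e-10). The bound depends on the processing and was 176-fold on deposited signals without normexp background correction. The podocyte markers *Podxl*, *Wt1*, *Ptpro* and *Cdkn1c* were detected on all 8 arrays, and *Nphs1* and *Synpo* had no probe.

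The arrays did not share a common background. The background inferred for Cd151+/+ mice 1 and 2 (65.2 and 59.0) and Cd151-/- mice 3 and 4 (69.5 and 68.8) was lower than that for Cd151+/+ mice 3 and 4 (123 and 129) and Cd151-/- mice 1 and 2 (135 and 129). Each set holds 2 mice of each genotype, so every genotype difference could also be taken within each set. The labels name no batch, slide or date. Across the 8 tested genes the difference between the 2 sets exceeded that between the genotypes in 6, and the same held for 69.4% of all tested probes.

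**Figure D1:**
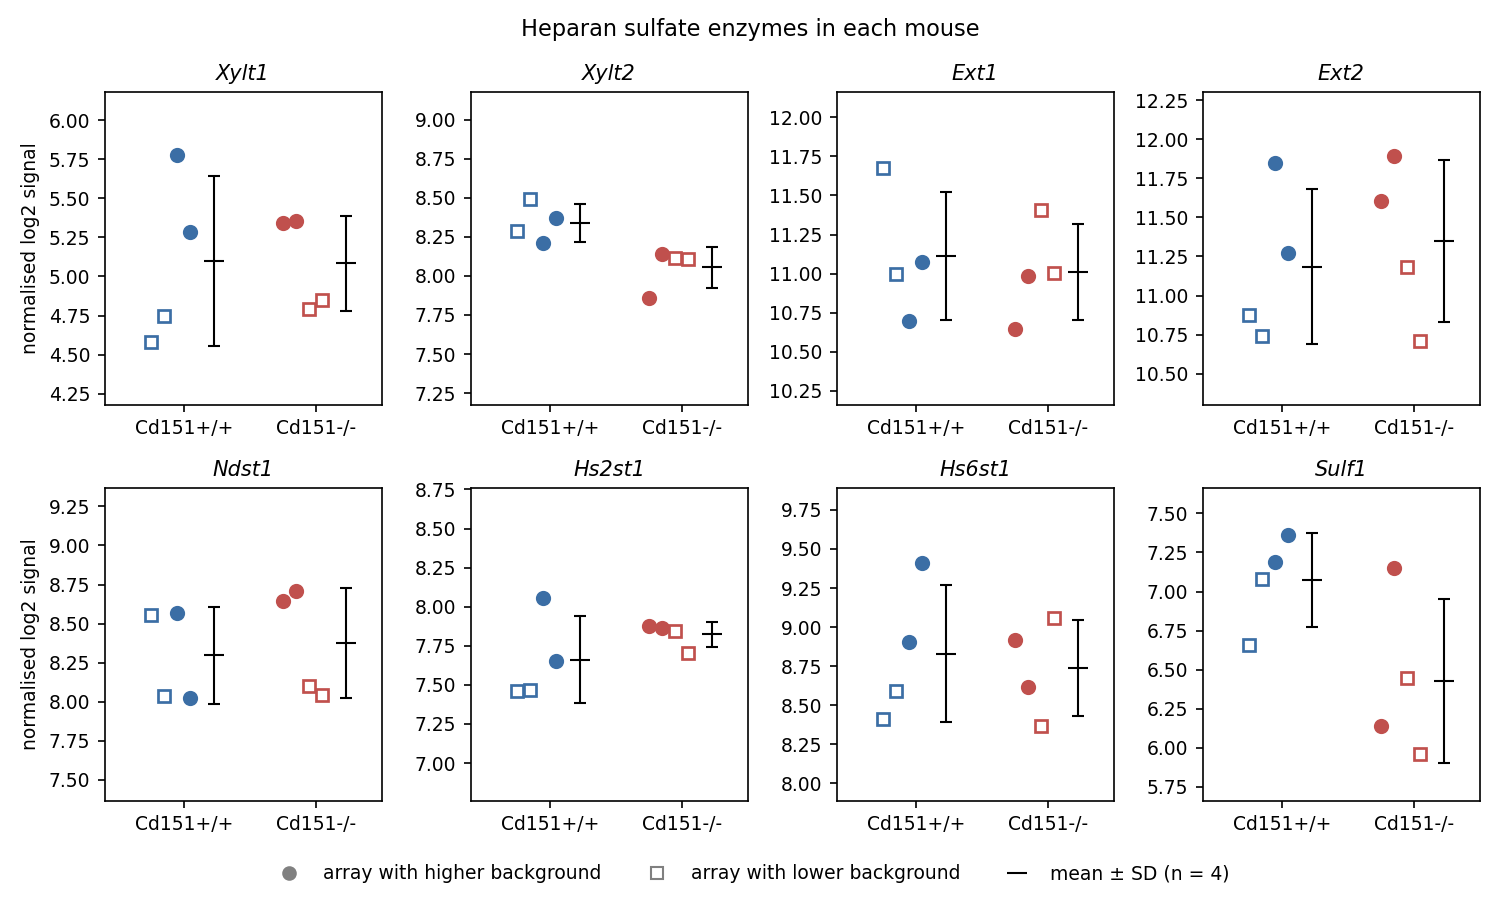
Normalised log2 signal of the 8 tested heparan sulfate enzyme genes (y axis, with the same range of log2 units in every panel) in each Cd151+/+ mouse (blue) and Cd151-/- mouse (red), with the mean ± SD of 4 mice in black. Filled circles are the arrays with higher background and open squares those with lower background. The 2 genotypes are apart only for *Xylt2*, while *Xylt1*, *Ext2* and *Hs2st1* separate the filled from the open symbols in the Cd151+/+ mice and in the Cd151-/- mice.

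Chain initiation is carried out by 2 xylosyltransferases, which transfer xylose to a serine of the core protein and so start both heparan and chondroitin sulfate chains. *Xylt2* was the one enzyme gene whose groups did not overlap when each gene is taken by its brightest probe. It read 8.29, 8.49, 8.21 and 8.37 in Cd151+/+ mice 1 to 4 and 7.86, 8.14, 8.11 and 8.11 in Cd151-/- mice 1 to 4. All 4 Cd151-/- mice therefore lay below all 4 Cd151+/+ mice, although the gap between the groups was small, and mouse 1 was the lowest of the Cd151-/- mice. The means were 8.34 ± 0.12 and 8.06 ± 0.13 (SD, n = 4), a difference of -0.28 (95% interval -0.70 to 0.14), or 1.22-fold lower. The exact two-sided permutation p was 0.0286, the smallest that 4 against 4 mice can give, whereas limma, which borrows the variance of all probes, gave p = 0.166 and an adjusted p of 0.918. Groups that do not overlap in this direction were found for 1.46% of all tested probes. The difference was -0.28 on the arrays with lower background and -0.29 on those with higher background. The study had itself placed *Xylt2* in a kidney disease gene list chosen on these same mice, so its direction is not independent evidence.

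The promoter of *Xylt2* is shown because its groups did not overlap. It is the RefSeq window of 300 bases around the annotated start, in mouse assembly GRCm38.p6 at chr11:94677444-94677743 on the minus strand, with capitals marking GGGCGG on either strand (CCGCCC in the opposite orientation), the GC box that SP-family factors can bind.
Xylt2: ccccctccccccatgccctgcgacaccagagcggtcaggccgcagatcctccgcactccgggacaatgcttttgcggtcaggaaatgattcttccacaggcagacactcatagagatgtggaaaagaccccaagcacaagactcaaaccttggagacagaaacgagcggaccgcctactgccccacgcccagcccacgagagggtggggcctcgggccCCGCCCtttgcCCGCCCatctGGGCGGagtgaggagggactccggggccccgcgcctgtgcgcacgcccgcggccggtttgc
The window holds 3 such boxes and no TATAAA in either orientation. RefSeq windows were found for 6 of the 10 listed genes, *Hs6st1*, *Ext2*, *Hs2st1*, *Glce*, *Xylt2* and *Ndst2*. All except *Ext2* hold at least 1 GC box, from 2 in *Hs2st1* to 7 in *Hs6st1*, whereas 35.7% of all 32851 promoter windows hold one. None of the 6 has TATAAA, which occurs in 13.6% of all windows. They carry 18 to 47 CG dinucleotides each, against a median of 7 over all windows. These matches describe the sequence and are not binding sites.

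*Xylt1*, the other xylosyltransferase gene, was near the limit of detection. Its probe was detected on 4 arrays, the 4 with higher background, and on none of the others. Its deposited signal was 168, 162, 177 and 172 on those arrays (Cd151+/+ mice 3 and 4, Cd151-/- mice 1 and 2), against backgrounds of 123 to 135, and 61.0, 59.8, 71.7 and 72.6 on the other 4. After normalisation it read 4.58, 4.75, 5.78 and 5.28 in Cd151+/+ mice 1 to 4 and 5.34, 5.35, 4.79 and 4.85 in Cd151-/- mice 1 to 4. The higher readings are those of the arrays with higher background in both genotypes. The genotype difference was -0.01 (95% interval -0.66 to 0.63, exact permutation p = 1, limma adjusted p = 0.996), against 0.70 between the sets of arrays.

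Chain extension depends on EXT1 and EXT2, which form the copolymerase that adds glucuronic acid and N-acetylglucosamine in turn. *Ext1* read 11.68, 10.998, 10.70 and 11.07 in Cd151+/+ mice 1 to 4 and 10.65, 10.99, 11.40 and 11.01 in Cd151-/- mice 1 to 4. The groups overlapped over most of their range, with a difference of -0.10 (95% interval -0.68 to 0.48, exact permutation p = 0.657, limma adjusted p = 0.957). *Ext2* read 10.87, 10.74, 11.85 and 11.27 in Cd151+/+ mice 1 to 4 and 11.61, 11.89, 11.18 and 10.71 in Cd151-/- mice 1 to 4. Here too the groups overlapped, and the arrays with higher background held the highest values of both genotypes. The *Ext2* difference between genotypes was 0.16 (95% interval -0.54 to 0.87, exact permutation p = 0.686, limma adjusted p = 0.938), against 0.78 between the sets of arrays. For *Ext1* the sets differed by -0.42, in the opposite direction.

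N-deacetylation and N-sulfation of glucosamine is the first modification of the chain and is carried out by NDST enzymes. Of the 2 listed, *Ndst1* had 3 probes. Its brightest probe read 8.56, 8.04, 8.57 and 8.02 in Cd151+/+ mice 1 to 4 and 8.64, 8.71, 8.10 and 8.04 in Cd151-/- mice 1 to 4. The genotypes overlapped, with a difference of 0.08 (95% interval -0.47 to 0.63, exact permutation p = 0.514, limma adjusted p = 0.962). The sign turned between the sets, from -0.22 on the arrays with lower background to 0.38 on those with higher background. The other 2 *Ndst1* probes differed by -0.16 (limma adjusted p = 0.955) and -0.36 (limma adjusted p = 0.918). The last of these was detected on 1 array only, that of Cd151+/+ mouse 1, so it was tested only through the group in which it is higher and its direction is not used. The intermediate probe was detected on all 8 arrays and spread more widely among the Cd151-/- mice (SD 0.91) than among the Cd151+/+ mice (SD 0.36), and it read 1.04 higher on the arrays with higher background than on the others. Between the genotypes, the brightest and the intermediate probe differed in opposite directions (0.08 and -0.16).

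Further modification involves GLCE, which epimerises glucuronic to iduronic acid, HS2ST1, which sulfates iduronic acid at the 2-O position, and HS6ST1, which sulfates glucosamine at the 6-O position. The *Glce* probe had detection p-values from 0.278 to 0.847, and its level was within the background of every array. *Hs2st1* read 7.46, 7.47, 8.06 and 7.65 in Cd151+/+ mice 1 to 4 and 7.88, 7.87, 7.84 and 7.71 in Cd151-/- mice 1 to 4. The Cd151-/- mice lay close together inside the range of the Cd151+/+ mice, and the difference was 0.16 (95% interval -0.30 to 0.62, exact permutation p = 0.229, limma adjusted p = 0.918). *Hs6st1* read 8.42, 8.59, 8.90 and 9.41 in Cd151+/+ mice 1 to 4 and 8.92, 8.62, 8.37 and 9.06 in Cd151-/- mice 1 to 4. These groups overlapped as well, with a difference of -0.09 (95% interval -0.68 to 0.50, exact permutation p = 0.743, limma adjusted p = 0.96), which was 0.21 on the arrays with lower background and -0.39 on those with higher background. A second *Hs6st1* probe was not detected on any array.

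*Sulf1*, which encodes an extracellular sulfatase that removes 6-O sulfate from finished chains, had the largest difference among the 8 tested genes. It read 6.66, 7.08, 7.19 and 7.36 in Cd151+/+ mice 1 to 4 and 6.14, 7.15, 6.45 and 5.96 in Cd151-/- mice 1 to 4. In 3 of 4 Cd151-/- mice it was below every Cd151+/+ mouse, and mouse 2 fell within the Cd151+/+ range. The means were 7.07 ± 0.30 and 6.43 ± 0.52 (SD, n = 4), a difference of -0.65 (95% interval -1.28 to -0.01), or 1.57-fold lower. The limma p was 0.0457 before and 0.918 after adjustment, and the exact permutation p was 0.0857. The difference was -0.67 on the arrays with lower background and -0.63 on those with higher background. With each mouse left out it ranged from -0.87 (without Cd151-/- mouse 2) to -0.50 (without Cd151-/- mouse 4), and it passed the unadjusted threshold only without Cd151+/+ mouse 1 or Cd151-/- mouse 2. Over all 19 alternative settings it passed in 8.

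**Figure D2:**
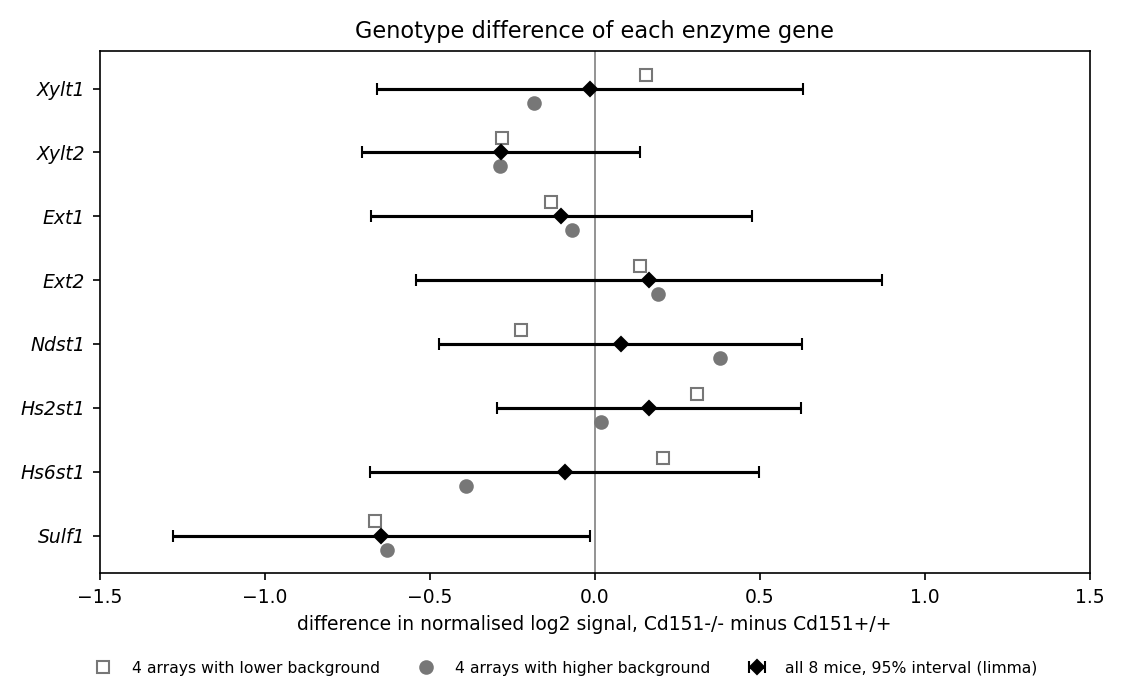
Difference in normalised log2 signal (x axis, Cd151-/- minus Cd151+/+) for each of the 8 tested enzyme genes, as a diamond with its 95% interval over all 8 mice, and within the 4 arrays of lower background (open squares) and the 4 of higher background (filled circles). The interval of *Sulf1*, from -1.28 to -0.01, leaves out 0, those of the other 7 genes include it, and *Xylt1*, *Ndst1* and *Hs6st1* have opposite signs in the 2 sets.

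Counted together, 0 of the 8 tested enzyme genes passed Benjamini-Hochberg adjustment (lowest limma adjusted p = 0.918), where 0.0334% of all tested probes did. At an unadjusted p below 0.05 there was 1, *Sulf1*, among the 4.3% of all tested probes that passed it, or 2.61% in the lower direction. The mean was lower in Cd151-/- mice for 5 genes and higher for 3, where 50.9% of all tested probes were lower. The median difference was -0.05, against -0.0073 over all tested probes. The direction was the same in both sets of arrays for 5 of the 8 genes, *Xylt2*, *Ext1*, *Ext2*, *Hs2st1* and *Sulf1*, and for 60.8% of all tested probes. A limma fit blocked on array set left *Sulf1* as the 1 gene past the unadjusted threshold (adjusted p = 0.402, and 0.487 for *Xylt2*), in a fit where 11.3% of all tested probes passed it. The 95% intervals of the 8 genes reached down to -1.28 for *Sulf1* and up to 0.87 for *Ext2*.

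No mouse stood apart across the enzyme genes. Counting how often a mouse had the highest of the 8 values, Cd151+/+ mice 3 and 4 and Cd151-/- mouse 2 did so for 2 genes each, Cd151+/+ mice 1 and 2 for 1 each, and Cd151-/- mice 1, 3 and 4 for 0. The lowest value was found for 2 genes each in Cd151+/+ mouse 1 and Cd151-/- mice 1 and 4, and for 1 each in Cd151+/+ mouse 4 and Cd151-/- mouse 3. The median deviation from the gene means was positive in the 4 mice on arrays with higher background (0.09 to 0.27) and negative in the 4 on arrays with lower background (-0.23 to -0.16). *Xylt2* had a range of 0.28 in each group, close to its genotype difference of -0.28. For the other 7 genes the range of each group ran from 0.17 to 1.198, and it exceeded the genotype difference in both groups for all of them.

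The remaining genes of the pathway were grouped by role into 8 lists of 70 genes, of which 62 had a probe and 46 were tested. None passed adjustment (lowest limma adjusted p = 0.918), and 2 passed an unadjusted p of 0.05, *Sdc1* and *Gpc1*, both lower, where 2.61% of all tested probes passed it in the lower and 1.69% in the higher direction. Of the 46, 6 were detected in 1 genotype only and were thus tested only through that group, so they are left out of the counts and medians that follow. Among the other 40 the mean was lower in Cd151-/- mice for 21 and higher for 19, with a median difference of -0.02.

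**Figure D3:**
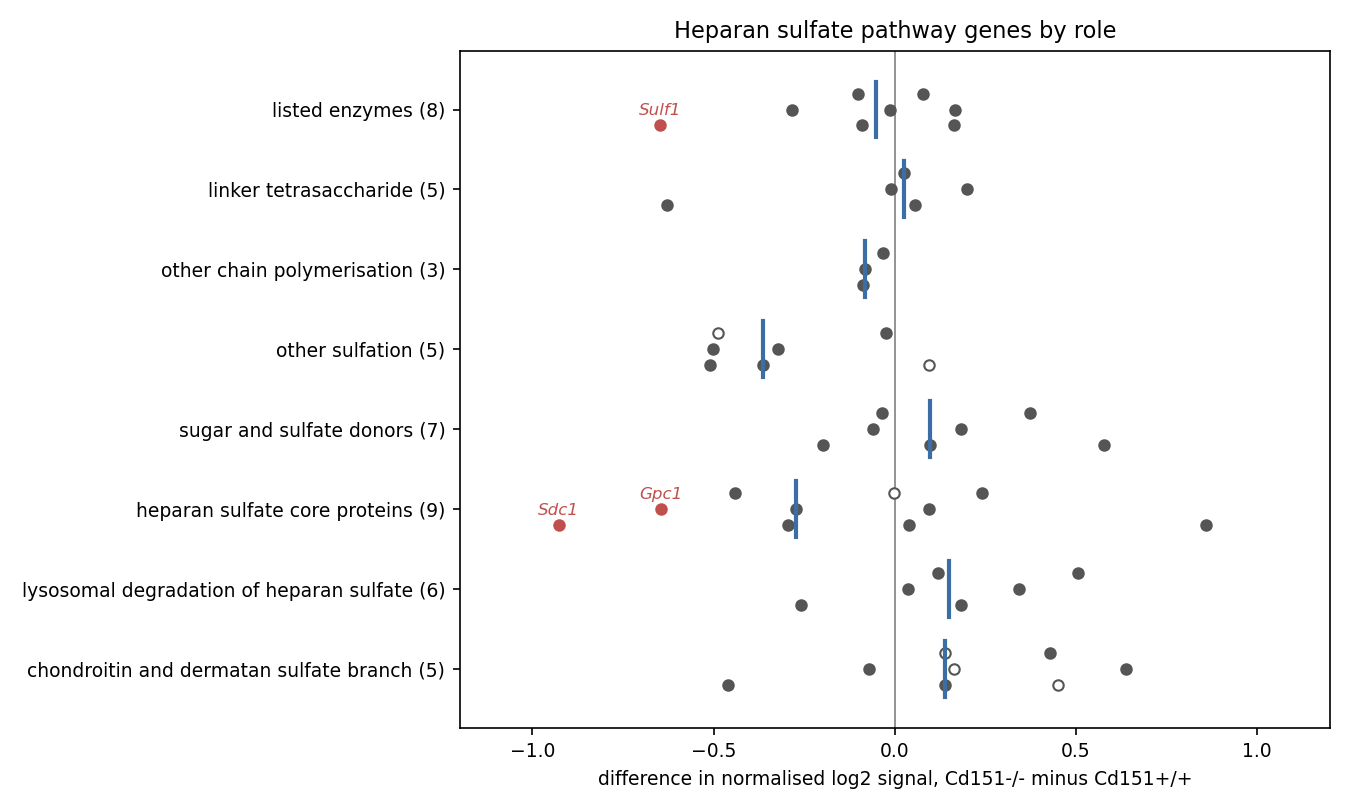
Difference in normalised log2 signal (x axis, Cd151-/- minus Cd151+/+) of each tested gene by role, 1 point per gene, filled where both genotypes detected it and open where 1 did, with the number of filled points in brackets and their median as a blue line. Genes past an unadjusted p of 0.05 are red and named, *Sulf1*, *Sdc1* and *Gpc1*, all to the left of 0, and none passed adjustment.

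The core proteins that carry the chains held the largest differences. Of 13 genes listed, 9 were detected in both genotypes, 5 with a lower and 4 with a higher mean in Cd151-/- mice (median difference -0.27). *Sdc1* encodes syndecan 1, a transmembrane proteoglycan best known from epithelial cells. Its brightest probe read 7.92, 7.36, 7.58 and 7.03 in Cd151+/+ mice 1 to 4 and 6.42, 6.50, 7.13 and 6.14 in Cd151-/- mice 1 to 4. The groups overlapped only through Cd151-/- mouse 3, which was above Cd151+/+ mouse 4. The difference was -0.93 ± 0.28 (SE), or 1.90-fold lower (limma p = 0.00633, adjusted p = 0.918, exact permutation p = 0.0571). The other 2 *Sdc1* probes, detected on 3 arrays and 1 array, differed by -0.02 and -0.17. *Sdc4*, the gene of syndecan 4, named after its values were seen, had the next largest difference in size and in the other direction, 0.86 (exact permutation p = 0.514). It read 7.47, 7.83, 10.62 and 10.45 in Cd151+/+ mice 1 to 4 and 10.93, 11.60, 7.48 and 9.79 in Cd151-/- mice 1 to 4. The groups overlapped, and the sets of arrays differed by 2.76. The genotype difference of *Sdc4* was 0.98 on the arrays with lower background and 0.74 on those with higher background.

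*Gpc1* encodes glypican 1, which is anchored to the cell surface by a lipid. It read 13.01, 12.92, 13.02 and 12.75 in Cd151+/+ mice 1 to 4 and 12.09, 12.64, 12.57 and 11.81 in Cd151-/- mice 1 to 4. The groups did not overlap, and the Cd151-/- mice were more spread out. Among the 46 tested pathway genes this was the only 1 without overlap, where 1.46% of all tested probes did not overlap in this direction. The difference was -0.64 ± 0.24 (SE), or 1.56-fold lower (limma p = 0.0199, adjusted p = 0.918, exact permutation p = 0.0286). It was -0.77 on the arrays with lower background and -0.52 on those with higher background.

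**Figure D4:**
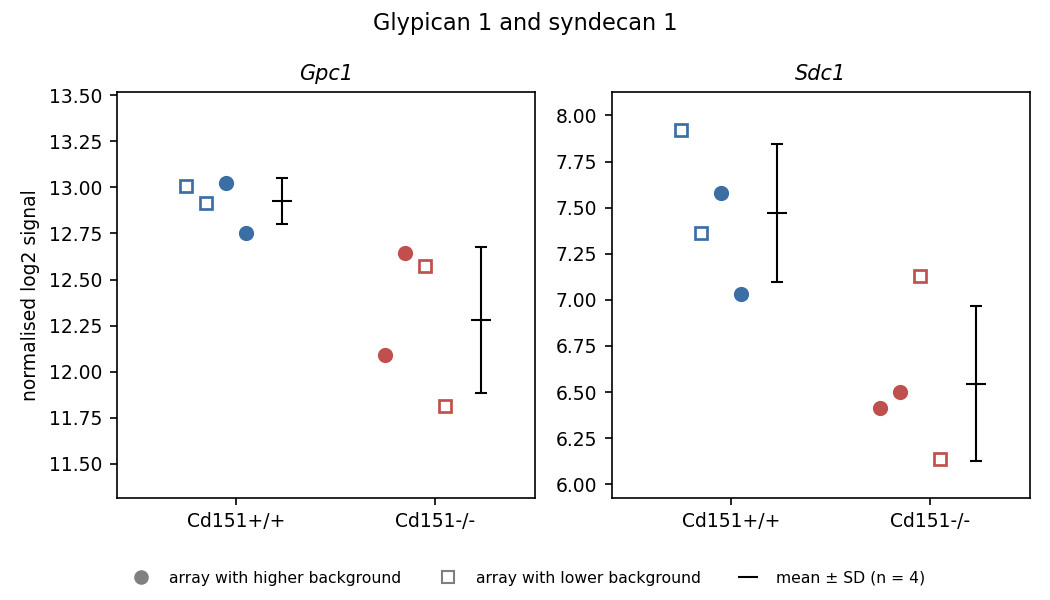
Normalised log2 signal (y axis, with the same range of log2 units in every panel) of *Gpc1* and *Sdc1* in each Cd151+/+ mouse (blue) and Cd151-/- mouse (red), with the mean ± SD of 4 mice in black. Filled circles are arrays with higher background and open squares those with lower background. The Cd151-/- mice lie below all Cd151+/+ mice for *Gpc1*, while 1 Cd151-/- mouse overlaps for *Sdc1*.

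The core proteins of the basement membrane itself, outside the rule by which genes were named, are given for their place in the tissue. *Agrn*, the gene of agrin, differed by -0.27 (exact permutation p = 0.143), *Hspg2*, the gene of perlecan, by -0.29 (exact permutation p = 0.543) and *Col18a1* by 0.04 (exact permutation p = 0.886). In all 3 the groups overlapped. A second *Col18a1* probe, also detected on all 8 arrays, differed by -0.21, so its probes did not share a direction.

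Lysosomal breakdown of heparan sulfate proceeds from the chain end by sulfatases and glycosidases acting in turn. Of 7 genes listed, 6 were tested, 5 with a higher and 1 with a lower mean in Cd151-/- mice (median difference 0.15). None passed an unadjusted p of 0.05. The largest difference was 0.50 for *Arsg*, a sulfatase gene of this pathway (exact permutation p = 0.514). It was 1.01 on the arrays with lower background and -0.0007 on those with higher background. The direction was the same in both sets of arrays for 3 of the 6 genes.

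No gene of the other lists passed an unadjusted p of 0.05. Of the sulfotransferase genes beside those above, 5 of 11 were detected in both genotypes. The mean was lower in Cd151-/- mice for all 5 of them (median difference -0.36), where 50.9% of all tested probes were lower. For *Hs6st3*, *Hs3st3a1* and *Hs3st6* the sign turned between the sets of arrays. The largest difference was that of *Hs3st3b1*, a 3-O-sulfotransferase gene, at -0.51 (exact permutation p = 0.257). It was -0.92 on the arrays with lower background and -0.09 on those with higher background. The 5 genes of the linker between protein and chain had a median difference of 0.02, and *B3gat3*, whose enzyme adds the glucuronic acid that completes the linker, differed by -0.63 (exact permutation p = 0.171). The 3 exostosin-like genes differed by -0.09 to -0.03, with *Extl1* at -0.09. The 7 tested genes that supply activated sugars and sulfate had a median difference of 0.10, with *Papss2*, a gene of sulfate activation, at 0.58 (exact permutation p = 0.343). The *Papss2* difference was 1.25 on the arrays with lower background and -0.09 on those with higher background. The 5 genes detected in both genotypes of the chondroitin and dermatan sulfate branch, which shares the linker, had a median difference of 0.14, with *Chst7*, a sulfotransferase gene, at 0.64 (exact permutation p = 0.343). Of the 3 genes of editing and cleavage outside the cell beside *Sulf1*, 1 had a probe, and it was not detected.

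Markers of the cells in the isolate were read beside these values. In whole glomeruli, fewer cells of a type and less RNA per cell cannot be told apart. The summed signal of the 4 erythroid markers, to which the probe of *Hba-a1*, an alpha globin gene, added most, was 49800, 50100, 43200 and 38100 in Cd151+/+ mice 1 to 4 and 17900, 36700, 37500 and 24100 in Cd151-/- mice 1 to 4. These groups did not overlap (exact permutation p = 0.0286), but *Hba-a1* was the brightest probe of the array in Cd151+/+ mice 1 and 2, where quantile normalisation gives it the top value of the scale. After scaling to the 75th percentile, which sets no such ceiling, the groups overlapped (exact permutation p = 0.0571), and so they did in the sum without *Hba-a1* (exact permutation p = 0.143). Both settings were chosen after seeing the data. The log2 difference of the sums was -0.70 with all 4 markers and -1.29 without *Hba-a1*, so it was larger without that gene. The mean was lower for the 3 genes detected in both genotypes, and *Hbb-b1* was detected on 1 array only. *Alas2*, a gene of haem synthesis in red cell precursors, differed by -2.57 (exact permutation p = 0.0857) and *Hba-a1* by -0.69 under quantile normalisation (exact permutation p = 0.0571), or -0.999 after scaling to the 75th percentile, and both passed an unadjusted limma p of 0.05 but not adjustment. The 8 glomerular endothelial markers, with *Emcn* the brightest probe by its mean over all mice, were lower on average for 6 of the 7 genes detected in both genotypes, the largest difference being that of *Ehd3* at -0.63, with sums of 40200, 44400, 35900 and 34900 in Cd151+/+ mice 1 to 4 and 24900, 33900, 44200 and 22900 in Cd151-/- mice 1 to 4 (exact permutation p = 0.20). The podocyte markers had a mean lower in Cd151-/- mice for 4 of 4 tested genes, with sums of 62300, 63600, 64900 and 62100 and of 53200, 61900, 64200 and 55700, in the same order of mice, and *Cdkn1c* the brightest probe (exact permutation p = 0.20), itself at the top of the scale in Cd151+/+ mouse 3 and Cd151-/- mouse 3. Without *Cdkn1c* the groups overlapped as well (exact permutation p = 0.0571), but the log2 difference of the sums was larger, -0.35 against -0.11. The largest difference among the podocyte markers was that of *Ptpro* at -0.43. The 5 tested markers of mesangium and smooth muscle summed to 22400, 17900, 18900 and 16400 in Cd151+/+ mice 1 to 4 and 25900, 25000, 25400 and 15400 in Cd151-/- mice 1 to 4, with *Acta2* the brightest probe (exact permutation p = 0.314). Their members did not share a direction, with 3 lower and 2 higher. *Pdgfrb*, the receptor gene of mesangial cells and pericytes, differed by -0.74 and passed the unadjusted limma threshold but not adjustment (exact permutation p = 0.114). The brightest *Acta2* probe was higher by 0.38 (exact permutation p = 0.114). Its other probes were higher by 0.36, 0.50 and 0.71 (exact permutation p = 0.286, 0.114 and 0.0571). The *Acta2* probe at 0.71 also passed the unadjusted limma threshold but not adjustment (exact permutation p = 0.0571). The 8 tested tubule markers summed to 53900, 37700, 48100 and 72800 and to 63300, 46300, 45200 and 40500, in the same order of mice, with *Slc34a1* the brightest probe (exact permutation p = 0.714). Of the 7 detected in both genotypes 3 were lower and 4 higher, and *Kap*, a gene of the proximal tubule, was higher by 1.38 and passed the unadjusted limma threshold but not adjustment (exact permutation p = 0.0857). The 4 tested leukocyte markers summed to 855, 1060, 1150 and 889 and to 718, 1190, 867 and 884, with *Lyz2* the brightest probe (exact permutation p = 0.60), and *Cd3e* had their largest difference at -0.45. The leukocyte markers *Ptprc*, *Itgam* and *Cd79a* were not detected on any array. Without *Emcn* the log2 difference of the endothelial sums was -0.50, against -0.35 with it. For mesangium and smooth muscle it was -0.40 without *Acta2*, against 0.26 with it. For tubule it was -0.44 without *Slc34a1*, against -0.10, and for leukocytes -0.08 without *Lyz2*, against -0.12. The groups overlapped in each of these sums without the brightest probe (exact permutation p from 0.171 to 0.686). Cd151-/- mice 1 and 4, with the lowest erythroid, endothelial and podocyte sums of the 8 mice, also had the lowest *Xylt2*, *Sulf1*, *Gpc1* and *Sdc1* values. These genes were chosen for an unadjusted p below 0.05 or groups that did not overlap, and all were lower in Cd151-/- mice. The mesangium and smooth muscle sum was the highest of the 8 in Cd151-/- mouse 1 (25900) and the lowest in mouse 4 (15400). Their tubule sums were 63300 and 40500, and their leukocyte sums 718 and 884. The part of cell composition in the *Xylt2*, *Sulf1*, *Gpc1* and *Sdc1* values was not tested.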

How the data were processed

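The authors isolated glomeruli by perfusion with magnetic beads, amplified and biotin-labelled total RNA, scanned the arrays on an Illumina BeadArray Reader and checked their quality in GenomeStudio. The authors deposited signal intensity, averaged per probe over its beads, without background subtraction or normalisation. Beside it they deposited a detection p-value per probe and array, in steps of 1 over 798. In the published analysis values were normalised by cubic spline and tested with SAM, while its pathway and disease gene lists were chosen by an unadjusted p and, for the disease lists, a fold change.

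Here the groups came from the sample labels. In R 4.3.3, limma 3.58.1 estimated the background of an array from its detection p-values and applied neqc (offset 16, quantile normalisation), then lmFit and eBayes. A probe was tested if any array detected it (detection p-value not above 0.05), and p-values were adjusted by Benjamini-Hochberg over all 14967 such probes. A gene with several tested probes was represented by the probe of highest average. Exact permutation tests were two-sided over 70 relabelings. The detected signal was 3 to 4.46 times the background at the median of an array, and precision is limited by having 8 arrays. Of 18120 array symbols, 17212 were matched to the RefSeq gene table of GRCm38.p6, 12036 of them directly.

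The listed genes, the other gene lists and the tests were chosen with earlier results of these data known. Named are all 10 enzyme genes, and of each other list the genes past an unadjusted p of 0.05, those whose groups did not overlap and the one with the largest difference. *Agrn*, *Hspg2*, *Col18a1*, *Sdc4*, *Hs6st3*, *Hs3st3a1* and *Hs3st6* were added after their values were seen. Of the cell markers, the brightest probe of each list and genes given for their detection or lack of a probe are named too. Alternatives were signals as deposited (no normexp), cubic spline, an offset of 50, scaling to the 75th percentile, the detection filter dropped or raised to all 4 arrays of a group, blocks for mouse number or for array set, trended robust variances, array weights, the mean over the tested probes of a gene, and fits leaving out single mice. The procedure was tested on simulated data. Some genes of the lists of lysosomal enzymes and podocyte markers are not reported here and were left out of all counts and sums of those lists. Genes detected in 1 genotype only were left out of list counts and medians after the data were examined.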

Additional observations from a re-analysis of the deposited data

Results flagged for a closer look

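Within a genotype, a mouse stood apart from the other 3 in 9 of 112 groups of 4 mice tested by the gap to its nearest neighbour over the range, where chance gives about 1 in 20. Among the enzyme genes, *Xylt2* was low in Cd151-/- mouse 1 (7.86, nearest 8.11), the mouse that also had the lowest erythroid sum. The dimmest *Ndst1* probe was high in Cd151+/+ mouse 1 (5.90, nearest 4.98), the array on which alone it was detected. Among the other genes, Cd151-/- mice stood apart for *Agrn* in mouse 4 (12.78), *B3galt6* in mouse 3 (5.84) and *Gpc6* in mouse 2 (5.24). Cd151+/+ mice stood apart for *Pxylp1* in mouse 4 (9.69), *Slc35b3* in mouse 4 (10.15), *Ugp2* in mouse 3 (8.97) and *Csgalnact1* in mouse 2 (4.71). Beyond *Xylt2* and *Ndst1*, these genes were outside the naming rule, and the causes were not tested.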

How the results depend on the processing

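Under all 19 alternatives *Cd151* kept its direction and its adjusted p below 0.05, with a bound of at least 176-fold to at least 524-fold over the 5 ways of processing the signals, and 0 enzyme genes passed adjustment. The differences of *Sulf1* (-0.87 to -0.36) and *Xylt2* (-0.39 to -0.22) stayed negative in all 19, with an unadjusted p below 0.05 in 8 and in 2 of them, and *Hs2st1* stayed positive (0.10 to 0.30). The number of enzyme genes past the unadjusted threshold, 1 as reported, was 0 on deposited signals without normexp, 0 after scaling to the 75th percentile, 0 with a trended and robust variance, and 2 with no detection filter, *Sulf1* and *Xylt2*. With array weights it was 1, but *Xylt2* in place of *Sulf1*. With each mouse left out it ranged from 0 to 1, and *Sulf1* lost the threshold without Cd151+/+ mouse 2, 3 or 4 or Cd151-/- mouse 1, 3 or 4. The other pathway genes past it, 2 as reported, were 1 with the mean of all tested probes of a gene, 5 with the array set as a block, under which 11.3% of all tested probes passed, and 14 with array weights, under which 32.2% did. With each mouse left out they ranged from 1 (without Cd151-/- mouse 1 or 4) to 5 (without Cd151-/- mouse 3, where 9.42% of all tested probes passed), with 4 without Cd151+/+ mouse 3 (5.26% of all tested probes).

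Signs turned for enzyme genes whose difference was near 0. *Xylt1* was 0.0215 without normexp and 0.37 with array weights, *Hs6st1* was 0.13 with array weights, and *Ndst1* was -0.15 as the mean of its probes. With each mouse left out, *Xylt1* ranged from -0.20 to 0.21, *Hs6st1* from -0.23 to 0.10, *Ndst1* from -0.0323 to 0.19, *Ext1* from -0.24 to 0.0873 and *Ext2* from -0.0198 to 0.38. Sizes moved by over 1.5 times in the reported direction for *Ext1* (-0.37), *Ext2* (0.57), *Ndst1* (0.27) and *Hs2st1* (0.29) with array weights, *Xylt1* (-0.20) and *Hs6st1* (-0.0452) after scaling to the 75th percentile, *Xylt1* (-0.0021) with cubic spline and *Sulf1* (-0.36) without normexp. The causes were not tested.

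Nothing in the labels says that a mouse number marks a shared litter or day. Deviations from the group means correlated at -0.58, -0.40, -0.53 and -0.01 across genes between mice of the same number, but each such pair lies across the array sets, where all pairs ran from -0.65 to -0.01, so whether the numbers pair the mice cannot be told from these values. With the mouse number as a replicate block, 0 enzyme genes passed the unadjusted threshold (*Sulf1* limma adjusted p = 0.998). Detection on all 4 arrays of a group left no value for *Xylt1*.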
